A study of Homo sapiens with 18 samples.

Results

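The 5 transcripts described here, ST18, GRAMD3, RP11-645C24.2, RP1-159G19.1 and CTC-459I6.1, were picked because they were far lower after tazemetostat in at least 1 of 3 lines of G401 cells. They are 5 of the 55765 gene rows of the deposited table, and all 5 were among the 16154 rows with a mean of at least 10 over the 18 libraries. GRAMD3 has low levels in several groups, and its mean of 81.3 normalized counts comes mostly from 1 group. RP11-645C24.2 and RP1-159G19.1 have low levels in some of the treated groups. G401 is a malignant rhabdoid tumour line, a childhood cancer cell that has lost SMARCB1, and every group, the controls included, carries that loss. Tazemetostat is an inhibitor of the histone methyltransferase EZH2.

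Poly(A) RNA was sequenced from 6 groups of 3 biological replicates. WT is a control line cut by CRISPR/Cas9 at the AAVS1 safe harbour site, with RB1 intact. E1 and F2 are 2 clones with both RB1 alleles deleted by the same method, so each stands for 1 clone. Each of these 3 lines received DMSO, the solvent, or 10 µM tazemetostat for 11 days. Nothing in the labels says how the replicate cultures were separated, so p-values measure the spread between these libraries.

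EZH2 is the catalytic subunit of Polycomb repressive complex PRC2, which methylates histone H3 at lysine 27 and is associated with silent genes. SMARCB1 is a subunit of SWI/SNF chromatin remodelling complexes, which oppose Polycomb. RB1 restrains E2F transcription factors and cell cycle entry. Textbook direct targets of PRC2 go up when EZH2 is inhibited, whereas each member is a transcript that went the other way in at least 1 line.

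Among the members, ST18 encodes a zinc finger transcription factor of the NZF family, whose relatives MYT1 and MYT1L act in neurons and endocrine cells. GRAMD3, now called GRAMD2B, encodes a membrane protein of the endoplasmic reticulum with a GRAM domain, a lipid-binding fold. RP11-645C24.2, RP1-159G19.1 and CTC-459I6.1 carry names taken from genomic clones, as is usual for transcripts without an assigned gene symbol. Their function is not known here, and whether they overlap other genes, on either strand, was not examined, so reads shared with a neighbour cannot be told apart from their own.

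The libraries held 25709489 to 39314860 recovered reads. SMARCB1 had 0 reads in all 18 libraries, while SMARCA4, a SWI/SNF subunit kept in this line, lay between 9392 and 18583 normalized counts (reads divided by a size factor for each library) and VIM between 27410 and 69993. RB1 averaged 2694 (DMSO) and 2474 (tazemetostat) in WT, 648 and 977 in E1, and 839 and 937 in F2. Markers of other cells were examined because they could move with the members. The 4 blood markers summed to at most 7.26 normalized counts in any library, with PTPRC and CD3E at 0 in every DMSO library. The endothelial pair CDH5 and VWF summed to 0.946 to 8.93 in DMSO and 27.1 to 65.6 with tazemetostat, CDH5 being at 0 in DMSO in both clones. The 3 epithelial markers, mostly KRT18, summed to 8350 to 33162 in DMSO and 60187 to 117320 with tazemetostat. EPCAM alone was lower on average with tazemetostat (14.0 to 11.2, 9.14 to 3.35 and 16.4 to 7.03 for WT, E1 and F2), and CDH1 higher. The 3 fibroblast markers, mostly COL3A1, summed to 25463 to 33236 and 6213 to 20149. COL3A1 was lower on average with tazemetostat in each line. COL1A1 was higher (647 to 1933, 539 to 1503 and 727 to 6204), as was DCN, which was at 0 in DMSO in WT and E1 and averaged at most 7.13. Whether these shifts have a part in the members' levels was not tested. In bulk RNA, fewer cells with a transcript and less of it per cell cannot be told apart.

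The sequence shown first is that of GRAMD3, because a reader will look for what lies at its starts. GRAMD3 was the member whose level in DMSO depended most on the line, but its high level in E1 helped to choose it. RefSeq lists the gene as GRAMD2B, on the plus strand of chromosome 5, with 3 start sites in its table for GRCh38.p14. The deposited counts used hg19 and sum over the whole gene, so which start is in use was not measured. The 250 bases before each start follow, 5′ to 3′, with the dinucleotide CG in capitals. CG reads the same on both strands.
GRAMD2B start 1, chr5:126359870-126360119: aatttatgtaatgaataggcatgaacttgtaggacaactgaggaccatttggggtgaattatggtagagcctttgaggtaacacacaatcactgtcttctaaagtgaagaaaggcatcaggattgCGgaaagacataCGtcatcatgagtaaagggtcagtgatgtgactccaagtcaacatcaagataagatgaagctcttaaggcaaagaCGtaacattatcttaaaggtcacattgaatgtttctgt
GRAMD2B start 2, chr5:126423159-126423408: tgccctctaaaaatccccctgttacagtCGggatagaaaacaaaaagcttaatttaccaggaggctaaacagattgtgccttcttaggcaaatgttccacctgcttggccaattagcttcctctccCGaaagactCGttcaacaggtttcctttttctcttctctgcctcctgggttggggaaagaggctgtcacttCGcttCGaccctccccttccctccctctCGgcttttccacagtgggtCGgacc
GRAMD2B start 3, chr5:126464900-126465149: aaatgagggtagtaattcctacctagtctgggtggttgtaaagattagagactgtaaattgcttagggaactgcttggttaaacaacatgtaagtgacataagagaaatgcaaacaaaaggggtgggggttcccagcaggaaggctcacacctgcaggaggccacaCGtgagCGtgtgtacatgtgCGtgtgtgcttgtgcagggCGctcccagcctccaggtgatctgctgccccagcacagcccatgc
These windows held 3, 7 and 4 CG dinucleotides and 38.8%, 50.4% and 51.6% G plus C. Over 35116 RefSeq windows of the same length the medians were 11 CG dinucleotides and 58.0% G plus C. The shares of those windows with at least as many CG were 77.1%, 58.9% and 70.7%. All 3 GRAMD2B windows are thus poorer in CG than the median window. The count is a description of letters only.

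The values that chose the members were their own changes with tazemetostat, so these are described here without a test. The members were found among the 3 largest falls of a line when genes were ranked by log2 change. The rank covers genes called lower, with a mean of at least 50 over all libraries and treated libraries all below DMSO libraries. A gene was called when its limma adjusted p was under 0.05 and its log2 difference at least 1 in size. Called lower were 6.77% of the 16154 tested genes for WT, 3.78% for E1 and 3.71% for F2. CTC-459I6.1 had rank 3 of 735 in the WT line. The first 3 ranks of 397 for E1 were held by RP11-645C24.2, by RP1-159G19.1 and by GRAMD3. For F2, RP11-645C24.2 had rank 1 and ST18 rank 3 of 405. Just outside came CCDC160 in WT at a log2 difference of -3.82, against -4.08 for CTC-459I6.1. In E1, CALCRL followed at -4.03, against -4.08 for GRAMD3, and in F2 AC004540.4 followed at -4.13, against -4.55 for ST18. The standard errors of these 3 member values were 0.16, 0.25 and 0.30. CALCRL and PRAME, also among the 3 largest falls, are not members.

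**Figure D1:**
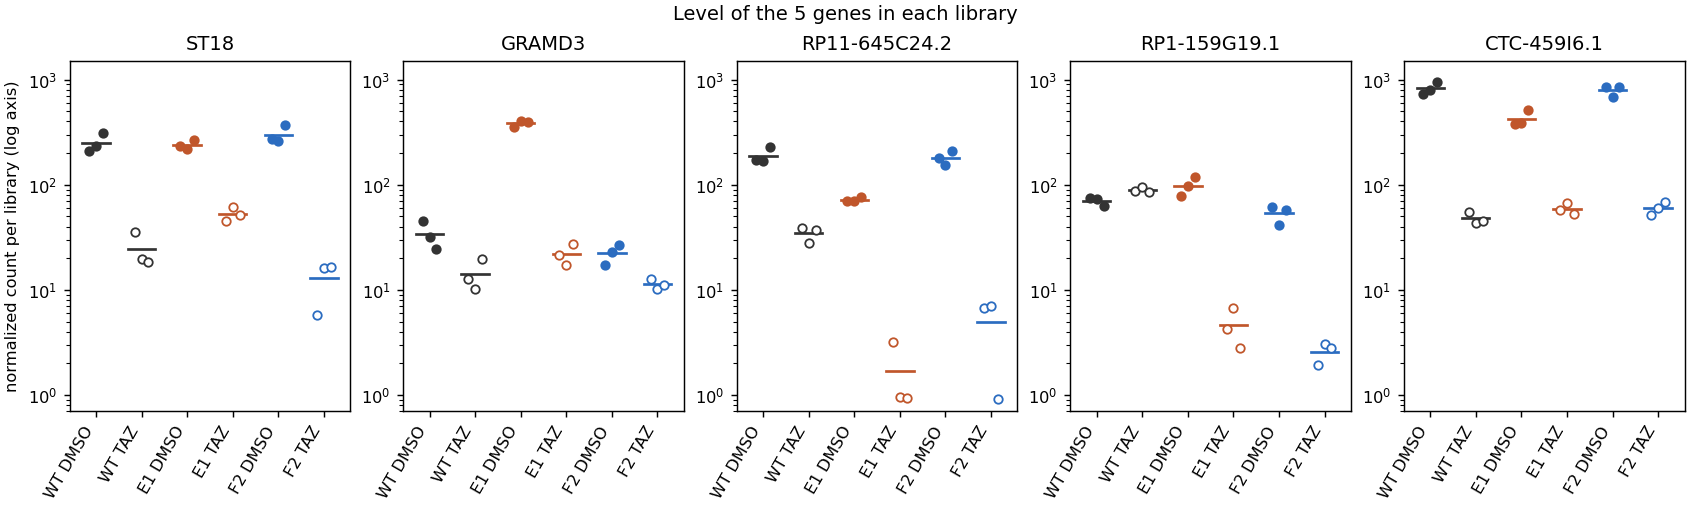
Normalized counts (log10 axis) of the 5 members in each of the 18 libraries, by line and treatment, with DMSO filled, tazemetostat (TAZ) open and lines at group means. RP1-159G19.1 in WT is the only case in which treated libraries lie above DMSO libraries, and GRAMD3 is high only in E1 with DMSO.

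ST18 was the member whose untreated level was most alike in the 3 lines. In DMSO WT had 211, 232 and 313 normalized counts, E1 236, 219 and 267, and F2 272, 261 and 366, so the 3 lines overlap. With tazemetostat WT had 35.5, 19.6 and 18.5, E1 44.7, 60.9 and 51.8, and F2 5.83, 16.1 and 16.6. Within each line the treated and untreated libraries did not overlap, the treated being lower. The treated lines separate from one another: every E1 library lay above every WT library, and every WT library above every F2 library.

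As a percentage of the DMSO mean, the treated mean of ST18 was 9.73% for WT, 21.8% for E1 and 4.29% for F2. On the log2(value + 1) scale the differences were -3.35, -2.18 and -4.55, each with a standard error of 0.30. The clones therefore lie on either side of WT, with E1 at the smaller and F2 at the larger difference.

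GRAMD3 had a different layout. In DMSO it stood at 355, 402 and 396 normalized counts in E1, but at 45.4, 32.0 and 24.6 in WT and at 17.4, 22.8 and 26.7 in F2. With tazemetostat E1 had 21.3, 17.4 and 27.3, WT 12.8, 10.3 and 19.7, and F2 12.6, 10.1 and 11.1. All treated libraries were below the DMSO libraries of their line, and the 3 treated lines lie within a narrow band from 10.1 to 27.3. The E1 difference starts from a high untreated level, whereas WT and F2 start near the treated band.

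For GRAMD3 the treated mean was 5.73% of the DMSO mean in E1, 41.9% in WT and 50.5% in F2. The log2 differences were -4.08, -1.20 and -0.91 (standard error 0.25). GRAMD3 passed the mean limit of 50 used for ranking through E1 with DMSO, since the other 5 groups averaged 11.3 to 34.0.

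RP11-645C24.2 had only a few reads in the treated clones, and these low counts set its precision. In DMSO WT had 172, 167 and 227 normalized counts, E1 70.5, 70.5 and 76.0, and F2 178, 154 and 208. With tazemetostat WT kept 38.4, 28.1 and 36.9. E1 had 3.19, 0.967 and 0.942, which are 3, 1 and 1 reads, and F2 had 6.80, 7.07 and 0.925, which are 7, 7 and 1 reads. WT thus retained a measurable level in each treated library, and each treated clone library lay below every treated WT library.

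Its treated mean was 18.3% of the DMSO mean for WT, 2.35% for E1 and 2.74% for F2. Because the clone counts are so low, the ratios of reads are given with exact 95% intervals that cover counting error only. DMSO exceeded tazemetostat 43.9-fold in E1 (18.5 to 136) and 36.9-fold in F2 (22.1 to 66.4). In WT the fold of group means was 5.47. The log2(value + 1) differences of -4.86 and -5.18 in E1 and F2 understate such changes, and the WT value was -2.42 (standard error 0.41).

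RP1-159G19.1 was the member with opposite directions between WT and the clones. In WT it had 74.2, 72.6 and 63.4 normalized counts in DMSO and 87.7, 94.5 and 85.0 with tazemetostat. In E1 it had 78.6, 97.5 and 118 in DMSO and 4.26, 6.77 and 2.83 with tazemetostat. In F2 it had 61.5, 41.5 and 57.0 in DMSO and 1.94, 3.03 and 2.77 with tazemetostat. The treated WT libraries all lay above the untreated ones, while the treated clone libraries held 2 to 7 reads each.

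In percent of the DMSO mean, the treated mean of RP1-159G19.1 was 127% for WT, 4.71% for E1 and 4.84% for F2. The read ratio of DMSO to tazemetostat was 21.1 in E1 (95% counting interval 12.4 to 39.1) and 20.6 in F2 (10.2 to 48.7). The log2 differences were 0.34 for WT, -4.18 for E1 and -3.92 for F2 (standard error 0.24). The difference of E1 minus F2 between these values was -0.26, within its own standard error of 0.34.

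CTC-459I6.1 had the most even treated level across the lines. In DMSO WT had 728, 804 and 943 normalized counts, E1 374, 386 and 514, and F2 848, 686 and 851. With tazemetostat WT had 55.2, 43.0 and 45.6, E1 57.5, 66.7 and 52.8, and F2 51.5, 60.6 and 68.4. The treated groups overlap, whereas untreated E1 lies below both other lines.

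The treated mean of CTC-459I6.1 was 5.81% of the DMSO mean for WT, 13.9% for E1 and 7.57% for F2, with log2 differences of -4.08, -2.82 and -3.70 (standard error 0.16). The clone with the lowest untreated level, E1, had the smallest difference on this scale.

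**Figure D2:**
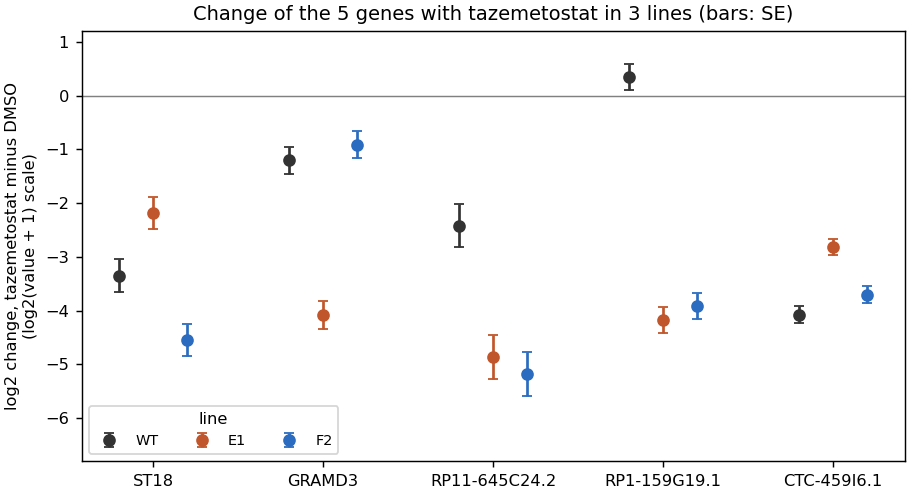
Log2(value + 1) difference of tazemetostat minus DMSO for each member in WT, E1 and F2, with bars at 1 standard error from the fit of all 18 libraries. ST18 ranges from -2.18 in E1 to -4.55 in F2, GRAMD3 from -0.91 in F2 to -4.08 in E1, and RP1-159G19.1 is 0.34 in WT against -4.18 and -3.92 in the clones.

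Treated libraries were wholly below DMSO libraries for 4 of 5 members in WT and for 5 of 5 in each clone. That layout held for 32.9% (WT), 19.7% (E1) and 28.8% (F2) of tested genes. The 1 member of 5 with treated libraries wholly above DMSO was RP1-159G19.1 in WT, a layout that 39.3% (WT), 27.0% (E1) and 33.6% (F2) of tested genes had. Nothing is read from these counts, since the members were picked by the same values.

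The differences between lines within DMSO and within tazemetostat use the same libraries as the falls that chose the members. A high untreated or a low treated level in the line of choice was thus favoured by the choice itself: GRAMD3, for example, met the mean limit only through E1 with DMSO. A difference was therefore tested only where neither line was one in which that member stood among the 6 largest falls. This left 6 of 30 differences: ST18 between E1 and WT, GRAMD3 between F2 and WT, and CTC-459I6.1 between E1 and F2, each in DMSO and in tazemetostat. RP11-645C24.2 and RP1-159G19.1 have none. The limit does not remove the choice in full: ST18 stood just outside it in WT, at rank 7 of 735. CTC-459I6.1 stood at rank 12 of 405 in F2 and 25 of 397 in E1. The levels tested are part of these falls, so the tests are not free of the choice. All other line differences are given with 95% intervals as a description. Counts of members past both limits (adjusted p and fold) also describe the choice, and nothing is read from them beside the share of all genes.

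In DMSO, the high level of GRAMD3 in E1, which helped to choose it, was the widest gap between lines. Its mean was 11.3-fold that of WT (log2 difference 3.50, 2.97 to 4.03) and 17.2-fold that of F2 (4.06, 3.53 to 4.60). Between F2 and WT, where it was tested, GRAMD3 differed by -0.56 (-1.10 to -0.03, limma adjusted p = 0.129, without a replicate block). Over all alternatives, the replicate block among them, its adjusted p ranged from 0.057 to 0.452.

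ST18 did not pass the test between untreated E1 and WT. Its log2 difference was -0.05 (-0.69 to 0.59, limma adjusted p = 0.947), which leaves room for a difference in either direction. The untreated F2 libraries differed from WT by 0.25 (-0.39 to 0.90) and E1 from F2 by -0.31 (-0.95 to 0.34).

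CTC-459I6.1, which was tested between the clones, was 1.87-fold lower in untreated E1 than in F2. The log2 difference was -0.91 (-1.24 to -0.58, limma adjusted p = 0.000152), with no overlap of libraries but under the fold limit. It ranged from -0.83 to -1.06 without single libraries, past the limit without E1 DMSO replicate 3 (-1.06) or F2 DMSO replicate 2 (-1.01). E1 lay 1.94-fold below WT as well (-0.96, -1.29 to -0.63), and F2 minus WT was -0.05 (-0.38 to 0.28).

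Untreated RP11-645C24.2 was also lowest in E1, at a mean 2.61-fold below WT (-1.36, -2.22 to -0.50) and 2.49-fold below F2 (-1.29, -2.15 to -0.43). F2 minus WT was -0.07 (-0.93 to 0.79). RP1-159G19.1 was instead highest in E1, above WT by 0.46 (-0.05 to 0.97) and above F2 by 0.87 (0.36 to 1.37), with F2 minus WT at -0.40 (-0.91 to 0.11).

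Between E1 and WT in DMSO, 2 of 5 members were past both limits, against 5.04% of tested genes, and 4 of 5 did not overlap, against 31.1%. Between F2 and WT, limma, edgeR and DESeq2 each had 0 of 5 past both limits, against 2.98% of tested genes in limma. At an unadjusted p under 0.05 there was 1 member in limma, 2 in edgeR and 1 in DESeq2, and the libraries of 1 of 5 did not overlap, against 38.6%. Between E1 and F2, 2 of 5 were past both limits, against 7.56%, and 4 of 5 did not overlap, against 38.7%.

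**Figure D3:**
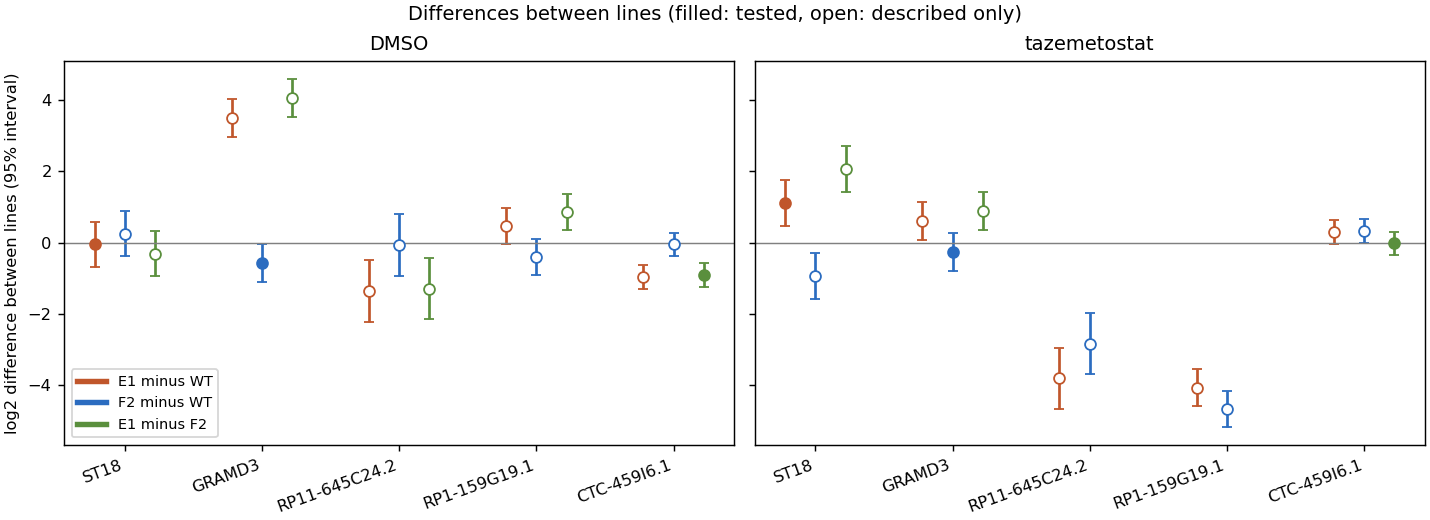
Log2(value + 1) differences between lines (E1 minus WT, F2 minus WT, E1 minus F2) within DMSO and within tazemetostat for each member, with 95% intervals, filled where tested and open where described only. The treated clones are not set against each other for RP11-645C24.2 and RP1-159G19.1. GRAMD3 stands at 3.50 and 4.06 for E1 in DMSO, and RP1-159G19.1 at -4.06 and -4.66 for the clones against WT with tazemetostat.

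Under tazemetostat, ST18, which held rank 7 of the falls in WT, was 2.14-fold higher in E1 than in WT. The log2 difference was 1.12 (0.48 to 1.76, limma adjusted p = 0.00514), higher in 3 of 3 libraries. These treated levels are part of the falls of ST18, so this p-value is not free of the choice. The difference was under the fold limit without WT tazemetostat replicate 2 (0.99) or replicate 3 (0.95). It was also under it with a pseudocount of 5 (1.00, just below the limit). Its adjusted p ranged from 0.00023 to 0.0295 over all alternatives. F2 minus WT was -0.94 (-1.58 to -0.30) and ran from -1.18 without F2 tazemetostat replicate 3 to -0.49 without replicate 1. E1 was 4.08-fold above F2 (2.06, 1.42 to 2.70).

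GRAMD3 and CTC-459I6.1 did not pass the test where it was made under tazemetostat. GRAMD3 differed by -0.27 between F2 and WT (-0.81 to 0.26, limma adjusted p = 0.382), by 0.62 between E1 and WT (0.08 to 1.15) and by 0.89 between E1 and F2 (0.36 to 1.42). CTC-459I6.1 differed by -0.02 between the clones (-0.35 to 0.30, limma adjusted p = 0.92), by 0.30 between E1 and WT (-0.03 to 0.62) and by 0.32 between F2 and WT (-0.01 to 0.65).

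RP11-645C24.2 and RP1-159G19.1 were the members with a level left in treated WT and almost none in the treated clones. RP11-645C24.2 had 20.7 times more reads in WT than in E1 (95% counting interval 8.60 to 65.3) and 7.07 times more than in F2 (4.09 to 13.1). RP1-159G19.1 had 19.4 times more than in E1 (11.3 to 36.0) and 34.7 times more than in F2 (17.3 to 81.2). Both were too low in the clones for these to be set against each other.

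Between E1 and WT under tazemetostat, 3 of 5 members were past both limits, against 11.3% of tested genes, and 3 of 5 did not overlap, against 61.4%. Between F2 and WT the counts were 2 of 5, against 12.3%, and 3 of 5, against 67.5%. Between the clones 1 of the 3 members high enough was past both limits, against 6.82%, and 2 of 5 did not overlap, against 52.6%. With 3 libraries a side, exact permutation of their labels (two-sided) could not reach a p below 0.1 for any line difference.

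To show which transcripts share each member's pattern, Pearson's r of log2(value + 1) was computed over the 18 libraries against 12979 tested genes with a mean of at least 50. All such genes share the libraries and treatment, so r is a description. ST18 was most like ZBTB8B (r = 0.97), TSPYL4 (0.97) and MYO3B (0.96), the last an unconventional myosin whose log2 differences with tazemetostat were -1.23 (WT), -1.04 (E1) and -2.48 (F2). GRAMD3 was most like CDC14A (0.92), ANKRD50 (0.91) and FGFR1OP (0.91). ANKRD50, at a mean of 7959 normalized counts in E1 with DMSO, against 2502 in WT and 2262 in F2, had log2 differences of 0.12, -1.24 and -0.05.

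The closest partner of each clone-named member had a higher r than the closest partner of ST18 or GRAMD3. RP11-645C24.2 was most like ZSWIM5 (r = 0.98), SHISA3 (0.98) and LINC00929 (0.97), and SHISA3, a regulator of WNT and FGF receptors, had log2 differences of -1.58 (WT), -3.65 (E1) and -3.84 (F2). RP1-159G19.1 was most like CA14 (0.98), a carbonic anhydrase, PRR18 (0.97) and EPB41 (0.97). PRR18 differed by -0.07, -2.02 and -2.53, so it too was near its DMSO level in WT and lower in both clones. CTC-459I6.1 was most like CCDC160 (0.99), PCCA (0.99), a subunit of propionyl-CoA carboxylase, and NUPL2 (0.99). CCDC160, itself the next largest fall in WT, differed by -3.82, -3.07 and -3.57. Between members r ran from 0.35 for RP11-645C24.2 with GRAMD3 to 0.92 for CTC-459I6.1 with ST18.

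Genes beside ST18 and GRAMD3 in RefSeq's order (GRCh38.p14) did not share their pattern in full. PCMTD1, before ST18, had log2 differences with tazemetostat of 0.30, -0.12 and -0.31 in WT, E1 and F2, none past the fold limit. ALKAL1, after ST18, was near 0 in all groups and was not tested. ZNF608, before GRAMD3, differed by 0.60, 0.08 and 0.63, again under the limit. ALDH7A1, after GRAMD3, encodes a lysine-catabolising aldehyde dehydrogenase and averaged 8957 normalized counts in E1 with DMSO, against 5494 in WT and 5822 in F2. Its log2 differences were -0.85, -1.01 and -0.45, with a call in E1, which was lost without E1 DMSO replicate 3 (-0.95) or E1 tazemetostat replicate 1 (-0.96). With every library scaled to the same total, WT was called too. In DMSO it differed by 0.70 between E1 and WT and by 0.62 between E1 and F2, under the fold limit. The 3 clone-named members had no match in the RefSeq table.

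The wider families were read from lists of named genes, each without the member itself, and beside the median log2 change of all tested genes, which was 0.03 for WT, 0.02 for E1 and 0.02 for F2. In the NZF family only MYT1 was tested. MYT1 fell in WT from 75.6 ± 9.0 to 18.2 ± 3.7 normalized counts (SD, n = 3). Its log2 change there was -2.01, with a standard error of 0.18 and a limma adjusted p of 1.9e-08. In E1 it went from 103 ± 20 to 75.0 ± 4.3 (-0.44, adjusted p = 0.058) and in F2 from 141 ± 14 to 84.8 ± 14.8 (-0.73, adjusted p = 0.0025), neither called. MYT1L had 0 reads in every DMSO library and means of 7.73, 9.14 and 13.5 with tazemetostat, too low to be tested.

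Of 4 tested GRAM domain genes besides GRAMD3, GRAMD1B, which carries cholesterol from the plasma membrane to the endoplasmic reticulum, fell in each line. Its means went from 3491 to 1498 (WT), from 3060 to 1318 (E1) and from 5105 to 1431 (F2). The log2 changes were -1.22, -1.21 and -1.84 (SE 0.08), with limma adjusted p of 2.1e-10, 3e-10 and 4.6e-13. GRAMD1A, GRAMD1C and GRAMD4 were not called in any line, and the list's median was -0.09, 0.03 and -0.20.

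Of 16 tested genes at contacts of the endoplasmic reticulum and the plasma membrane, 1 (6.25%) was called higher in each line and 0 lower, against 14.5%, 11.3% and 13.3% of all tested genes called higher and 6.77%, 3.78% and 3.71% lower. This was JPH1, a junctophilin, with 0 reads in DMSO and 210, 135 and 136 normalized counts with tazemetostat, at least 76.1-, 47.7- and 41.6-fold higher with DMSO taken at the floor of 3 reads per library. JPH1 reached the mean of at least 10 only through its treated libraries, so the filter admitted it because it rose. ESYT1 and VAPB, with the highest means of the list, differed by 0.21 or less in size. At an unadjusted p under 0.05, limma gave 10, 8 and 7 of the 16. STIM1 (0.85, 0.49 and 0.76) was under the adjusted p threshold in each line and missed only the fold limit. OSBPL8 went the other way in WT and F2 (-0.45 and -0.32), also under the fold limit. The list's medians were 0.20, 0.07 and 0.07.

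Neural and endocrine transcription factors were examined because ST18's relatives act there. Of 17, 5 were tested and 12 were too low. PAX6 and POU3F2 were called higher in all 3 lines, and NEUROD2 in WT, so 3, 2 and 2 were called in WT, E1 and F2, with 0 lower, against 14.5%, 11.3% and 13.3% of tested genes called higher. The list's medians were 1.26, 0.80 and 0.70, the values of NEUROD2, which averaged 5.82, 7.88 and 10.8 in DMSO. POU3F2 reached the mean of at least 10 only through its treated libraries, and NEUROD2 reached it because its treated libraries were higher. The filter thus favoured genes of this list that rise, and nothing is read from these counts and medians. PAX6 rose by 1.79, 2.00 and 1.65 and POU3F2 by 5.36, 6.94 and 6.07, from under 3 normalized counts on average in DMSO. POU3F2 means with tazemetostat were 85.0 for WT, 239 for E1 and 259 for F2. ISL2 went the other way (-0.21, -0.43 and -0.89), and in F2 it missed only the fold limit (limma adjusted p = 0.0027). NEUROG2 differed by 0.39, 0.41 and -0.42, not under the p threshold in any line. The NEUROD2 change in WT (1.26) is given without a p-value because of the filter. It was under the limit with a pseudocount of 5 (0.92) and without WT tazemetostat replicate 1 (0.99). All 9 SIN3 and LSD1 corepressors were tested, because MYT1 proteins recruit such complexes, and 0 were called in any line by limma, edgeR or DESeq2. At an unadjusted p under 0.05, limma gave 8, 7 and 7 of the 9, edgeR 9, 7 and 7, and DESeq2 8, 7 and 7. Of all tested genes, 6.77%, 3.78% and 3.71% were called lower and 14.5%, 11.3% and 13.3% higher. The list's medians were -0.49, -0.36 and -0.24. In WT, KDM1A (limma adjusted p = 2.2e-07) and HDAC1 (6.2e-06) were under the p threshold and missed only the fold limit. RCOR2 had the largest differences of that list, -0.81, -0.71 and -0.81, while HDAC1 differed by -0.46, -0.36 and -0.64 and HDAC2 by -0.14, 0.19 and 0.16.

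The lists also allowed a test of whether responses differed between lines, since their genes were not picked as members were. The lists were, however, chosen with earlier results of these data known, so these tests are not free of the data. Of 35 tested list genes, 2 were called for a response difference between E1 and WT (10.0% of all tested genes) and 1 between F2 and WT (7.48%). Between the clones 0 were called by limma (5.81%), with 8 at an unadjusted p under 0.05. The genes called were MYT1, in both clones against WT, and POU3F2, which passed the filter only through its treated libraries.

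**Figure D4:**
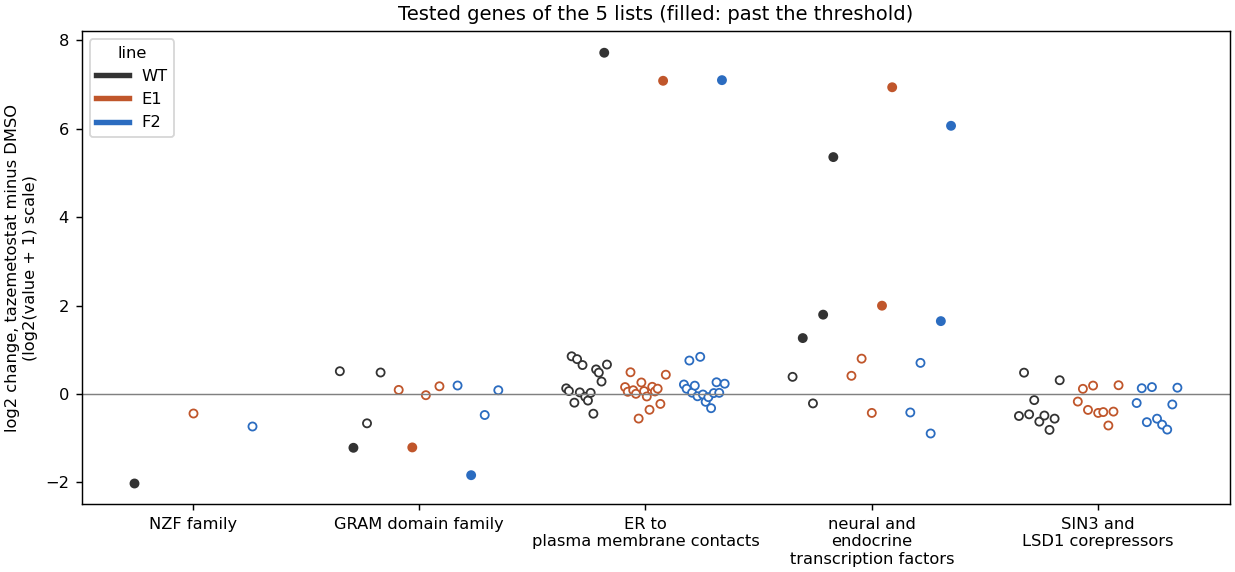
Log2(value + 1) change with tazemetostat of each tested list gene, 1 point per gene and line, filled where the gene was called. MYT1 lies at -2.01 in WT, GRAMD1B between -1.21 and -1.84, and POU3F2 and JPH1 above 5.

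The clone-named rows as a class put the 3 such members in context. Of 16034 other rows with names of this kind, 1562 were tested. Of these, 204 (13.1%) were called lower for WT, 120 (7.68%) for E1 and 124 (7.94%) for F2, against 6.77%, 3.78% and 3.71% of all tested genes. Called higher were 150, 111 and 138, that is 9.60%, 7.11% and 8.83%, against 14.5%, 11.3% and 13.3%. Their median log2 changes were -0.16, -0.03 and -0.08. Whether the class differs from other genes was not tested.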

How the data were processed

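Poly(A) RNA from 18 G401 cultures was prepared with a stranded kit and sequenced in pairs, per the labels' protocols. The submitters' processing notes name Trim Galore 0.4.4, STAR 2.6.0a, HTSeq, DESeq2 and build hg19. The annotation and the strand setting of the counting are not given in the sources used here. The deposited values are a normalized signal, in which each library's counts had been divided by its own factor of 0.812 to 1.1449. Multiplied by that factor, 100% of values were whole within 1e-06, which recovered 25709489 to 39314860 reads per library. No molecular identifiers were used, so floors (3 reads) and intervals cover counting error only. All 18 columns were used.

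limma 3.58.1 (R 4.3.3, mean-variance trend) was run on log2(value + 1) for 16154 genes with a mean of at least 10, in 1 fit of 6 group means. P-values were adjusted by Benjamini-Hochberg over all tested genes of a contrast. A call needed an adjusted p under 0.05 and a log2 difference of at least 1 in size. Treatment differences of members carry no test, since they chose the members. The design foresaw tests of the members between all lines, but these share libraries with the choice. P-values are given only for 6 differences between lines in which the member was not among the 6 largest falls, a limit set after seeing the data. edgeR 4.0.16 and DESeq2 1.42.0 on the recovered reads, other pseudocounts, filters and scalings, a replicate block and leaving out each library were alternatives. The fits were tested on simulated data.

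Named genes were the members, the 6 largest falls per line, the 3 most correlated genes per member, RefSeq neighbours and markers. From the lists they were called or most abundant genes (up to 3 called per line) and some genes under the p threshold only. The members and lists were chosen with earlier results of these data known. RefSeq tables (GRCh38.p14) matched 2 of 5 members by name, so no hg19 position is given. Same-numbered libraries of F2 and WT in DMSO deviated from their group means together (correlations 0.182, 0.108 and 0.375), which was taken as pairing there, from the data and not from the labels. It was not so in the other comparisons. Figures used matplotlib 3.10.9 in Python 3.11.15.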

Additional observations from a re-analysis of the deposited data

Results flagged for a closer look

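MYT1 and POU3F2 belong to lists chosen with earlier results of these data known. The change of MYT1 with tazemetostat differed between lines by an interaction test. It was smaller in the clones than in WT, by 1.57 ± 0.26 (SE) on the log2 scale in E1 (limma adjusted p = 0.000136, range over alternatives 1.5e-05 to 0.00076) and by 1.27 ± 0.26 in F2 (adjusted p = 0.0013, range 0.00047 to 0.0051).

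The change of POU3F2 was 1.58 ± 0.51 larger in E1 than in WT (limma adjusted p = 0.0219). POU3F2 averaged 1.48, 0.944 and 2.93 normalized counts in DMSO (WT, E1 and F2). It passed the filter on the mean only through its treated libraries, so nothing is read from this call. This call was lost with a pseudocount of 0.5 (adjusted p = 0.0937), without a filter on low genes (0.0538), without WT tazemetostat replicate 3 (0.0510) and with edgeR (0.0943) or DESeq2 (0.106). The adjusted p ranged from 0.00016 to 0.106.

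RP1-159G19.1 moved in opposite directions: its log2 difference with tazemetostat was 0.34 in WT, where 3 of 3 treated libraries lay above DMSO, and -4.18 in E1 and -3.92 in F2, where 3 of 3 lay below. The difference between the lines was not tested, because this gene was chosen by these changes.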

How the results depend on the processing

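Without the fold limit, the members past the p threshold in DMSO were 3 between E1 and WT, 0 between F2 and WT and 4 between E1 and F2, and under tazemetostat 4, 3 and 2. Over all genes the calls were then 3740, 3260 and 5997 in DMSO (E1 against WT, F2 against WT, E1 against F2) and 8373, 8573 and 5575 under tazemetostat, those lower with tazemetostat 4749, 3182 and 3754 in WT, E1 and F2, list genes 24, 16 and 18, and clone-named rows lower 425, 240 and 299. A mean of at least 50 left 504 and 792 (E1 against WT and F2, DMSO), 1139, 1230 and 605 under tazemetostat, 399 lower in E1, and 54, 33 and 34 clone-named rows. With no filter the counts under tazemetostat were 3130, 3273 and 2001, list genes in F2 10, and clone-named rows 341, 216 and 219. The settings differ in the genes they admit or in the rule for a call, and what moved each count was not tested.

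Leaving out 1 library at a time gave 1 to 3 members past both limits between E1 and WT in DMSO, 0 between F2 and WT and 1 to 3 between E1 and F2. Under tazemetostat it gave 2 to 3, 2 to 3 and 1 to 2. RP11-645C24.2 was no longer past them against WT without WT DMSO replicate 3 or E1 DMSO replicate 1 or 2, nor against F2 without F2 DMSO replicate 3. Differences near 0 changed sign for ST18 in E1 against WT (-0.168 to 0.115), RP11-645C24.2 (-0.174 to 0.0742) and CTC-459I6.1 (-0.138 to 0.0509) in F2 against WT, all in DMSO. CTC-459I6.1 in treated E1 against F2 (-0.131 to 0.0717) and ZNF608 with tazemetostat in E1 (-0.0160 to 0.185) did so too. The cause was not tested.

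The replicate block changed no member call and gave 481 calls for F2 against WT in DMSO, as without it. 8 of 18 libraries correlated best with their own number. Scaling every library to the same total moved the median change of all tested genes in WT by -0.15, and the share of calls that were higher there from 68.2% to 57.9%. The members' directions held, with RP1-159G19.1 in WT at 0.19 in place of 0.34. Depth limits RP11-645C24.2 and RP1-159G19.1 most, at 1 to 7 reads in each treated clone library.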
